A study of Mus musculus with 6 samples.

Results

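Chromosome 8 carried 970 of the 14023 peaks listed by the authors for REST and its cofactors RCOR1, RCOR2, RCOR3, SIN3A and SIN3B in E14 mouse embryonic stem (ES) cells. All peaks listed on that chromosome were taken, namely 164 of 3104 for REST, 3 of 84 for RCOR1, 54 of 459 for RCOR2, 92 of 3744 for RCOR3, 191 of 1314 for SIN3A and 466 of 5318 for SIN3B. The chromosome was selected on its peak counts, which were already known to stand apart, so its shares are given as a description and without a test. With 1 library for each protein the spread between replicates is unknown, and intervals are exact 95% Clopper-Pearson intervals that cover counting error only. All libraries came from E14 cells at passages 15 to 18. The endogenous REST and SIN3A proteins were precipitated with their own antibodies. RCOR1, RCOR2, RCOR3 and SIN3B were precipitated with a V5 antibody from stable E14 lines expressing a low level of the tagged protein (the transgene label of SIN3B gives the tag as VG). Whether each line was 1 clone is not given in the sources used here.

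REST is a zinc finger protein that binds a long DNA element near many neuronal genes and represses them outside neurons. It recruits the SIN3 scaffold proteins, SIN3A and SIN3B, through one end of the protein and the CoREST proteins, RCOR1 to RCOR3, through the other, and both scaffolds carry histone deacetylases. The SIN3 proteins are also brought to promoters by other transcription factors, without REST. Gain of a whole chromosome 8 is a frequent karyotype change in cultured mouse ES cells. Copy number was not measured in these libraries, and its part in the counts below was not tested.

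SIN3A and RCOR2 had more peaks on chromosome 8 than on any other autosome, SIN3B ranked number 2, and RCOR3 number 18 of 19. Chromosome 8 held 14.8% of the autosomal SIN3A peaks (191 of 1292, 12.9 to 16.8%), whereas the other 18 autosomes held between 2.55 and 8.44% each. For RCOR2 the share was 12.4% (54 of 436, 9.44 to 15.8%) against 2.29 to 8.49% elsewhere. For SIN3B it was 8.85% (466 of 5268, 8.09 to 9.65%) against 2.30 to 9.23%. These 3 lists placed chromosome 8 at or next to the top. RCOR2 and SIN3B came from tagged lines, as did RCOR3, and SIN3A from an antibody against the protein itself, as did REST. The part of the tag or line in these shares was not tested.

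REST, the DNA-binding partner, held a middle position. Its share on chromosome 8 was 5.37% (164 of 3055, 4.60 to 6.23%), against a median of 4.62% and a range of 2.52 to 8.31% over the other autosomes. RCOR1 had 3 of 59 autosomal peaks there (5.08%, 1.06 to 14.2%), too few for any statement on its share. RCOR3 had 2.47% (92 of 3727, 1.99 to 3.02%), and chromosome 9 alone held a smaller share, at 1.07%. Per 10 Mb of the span covered by peaks, chromosome 8 held 14.7 SIN3A peaks against a median of 4.31 over the other autosomes. The corresponding densities were 4.16 against 1.63 for RCOR2, 35.9 against 19.9 for SIN3B, 12.6 against 11.8 for REST and 7.08 against 15.1 for RCOR3. SIN3A therefore stood at 3.42 times the median autosome and RCOR3 at 0.471 times.

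**Figure D1:**
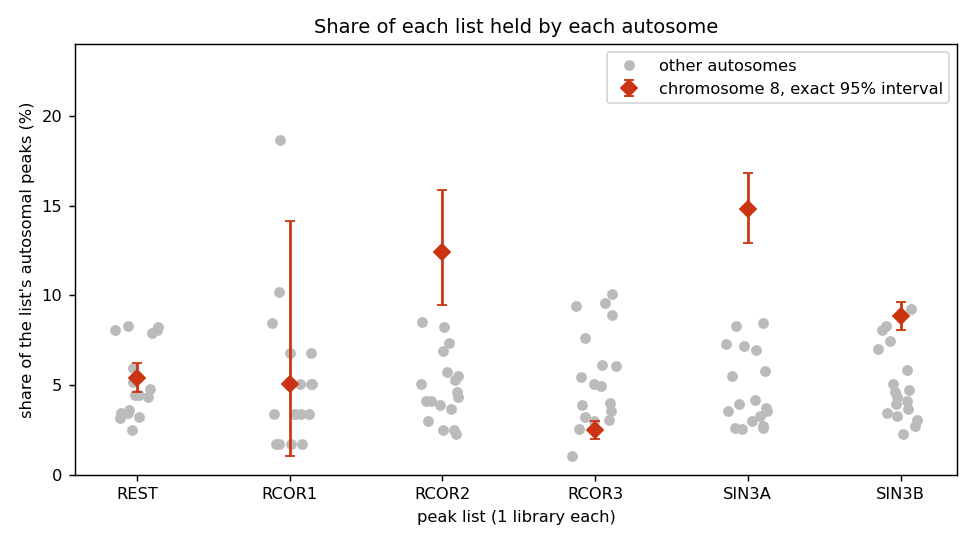
Share of each list's autosomal peaks (vertical axis, percent) for each autosome, with 1 column of points per list. Red diamonds are chromosome 8 with exact 95% intervals and grey points the other 18 autosomes. Chromosome 8 lies above all grey points for RCOR2 (12.4%) and SIN3A (14.8%), near the highest for SIN3B and near the lowest for RCOR3 (2.47%).

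The high counts of SIN3A, SIN3B and RCOR2 lay mostly away from REST. A cofactor peak was counted as lying at REST where its midpoint was less than 400 bp from a REST midpoint. Away from REST, chromosome 8 held 16.6% of SIN3A peaks (174 of 1051, 14.4 to 18.9%), 13.4% of RCOR2 peaks (50 of 373, 10.1 to 17.3%) and 9.69% of SIN3B peaks (400 of 4126, 8.81 to 10.6%). At REST these shares were 7.05% (17 of 241, 4.16 to 11.1%), 6.35% (4 of 63, 1.76 to 15.5%) and 5.78% (66 of 1142, 4.50 to 7.29%), close to the 5.37% of REST itself. RCOR3 was low in both settings, with 2.42% away from REST (67 of 2771, 1.88 to 3.06%) and 2.62% at REST (25 of 956, 1.70 to 3.84%). Relative to the share of REST peaks on the same chromosome, SIN3A away from REST stood at 3.08 on chromosome 8 and between 0.597 and 1.51 on the other autosomes. The same ratio was 2.50 for RCOR2 (0.540 to 1.31 elsewhere), 1.81 for SIN3B (0.710 to 1.40 elsewhere) and 0.450 for RCOR3 (0.0969 on chromosome 9 and up to 1.54).

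Correspondingly, a smaller part of the chromosome 8 peaks lay at REST. Of the SIN3A peaks on chromosome 8, 8.90% were at REST (5.27 to 13.9%), against 20.3% on the other autosomes and 18.7% over all autosomes. Of the SIN3B peaks, 14.2% were at REST (11.1 to 17.7%), against 22.4% elsewhere and 21.7% over all autosomes. For RCOR2 the values were 7.41% (2.06 to 17.9%) and 15.4%, with 14.4% over all autosomes. RCOR3 did not share this shift, with 27.2% of its chromosome 8 peaks at REST (18.4 to 37.4%), 25.6% elsewhere and 25.7% over all autosomes. For RCOR1, 2 of the 3 peaks were at REST, against 93.2% over all autosomes.

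Along the chromosome, the counts of SIN3A, SIN3B and RCOR2 were highest in a stretch of 40 Mb. Chromosome 8 was divided into 13 bins of 10 Mb from its first position to the last listed peak at 129.9 Mb. From the first bin to the last, SIN3A had 1, 3, 3, 1, 0, 0, 7, 60, 42, 26, 27, 12 and 9 peaks. SIN3B had 13, 19, 9, 5, 12, 5, 17, 95, 105, 62, 53, 24 and 47 peaks. Both lists rose at the same place, between the bin ending at 70 Mb and the next, and were lower again from 110 Mb on. RCOR2 had 0, 1, 2, 0, 2, 0, 6, 14, 10, 10, 5, 1 and 3 peaks, with its highest bin also from 70 to 80 Mb. In the stretch from 70 to 110 Mb, chosen after its counts were seen, lay 81.2% of the chromosome 8 peaks of SIN3A (155 of 191, 74.9 to 86.4%), 72.2% of those of RCOR2 (39 of 54, 58.4 to 83.5%) and 67.6% of those of SIN3B (315 of 466, 63.1 to 71.8%). The stretch made up 30.8% of the covered span. Peaks were also unevenly spread on the other autosomes. These spanned from 61.3 Mb (chromosome 19) to 195 Mb (chromosome 1), so 4 bins were a larger part of a shorter chromosome. Ranks by the share in 4 bins therefore depend on chromosome length as well, and chromosome 15 spanned 103 Mb. Their own 4 densest consecutive bins held a median of 56.6% of the SIN3A peaks of a chromosome and up to 82.9% (chromosome 15), and chromosome 8 ranked number 3 of 19 by this share. For SIN3B the median was 55.3% and the highest 77.7%, with chromosome 8 at number 4. For RCOR2, whose 4 densest bins on chromosome 8 ran from 60 to 100 Mb and held 74.1%, the median was 63.1% and the highest 80%, with chromosome 8 at number 5.

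REST and RCOR3 also had their 4 densest consecutive bins from 70 to 110 Mb, but these held a smaller part of their peaks. REST had 6, 20, 7, 10, 2, 4, 6, 19, 22, 19, 8, 13 and 28 peaks per bin, with its highest bin at the far end of the chromosome. RCOR3 had 0, 13, 9, 7, 5, 1, 1, 16, 16, 10, 3, 2 and 9. The stretch held 41.5% of the REST peaks (68 of 164, 33.8 to 49.4%) and 48.9% of the RCOR3 peaks (45 of 92, 38.3 to 59.6%). The 4 densest consecutive bins of the other autosomes held a median of 52.1% for REST and 57.5% for RCOR3. By this share, which also depends on chromosome length, chromosome 8 ranked number 15 of 19 for REST and number 13 for RCOR3. The median bin of the other autosomes held 9 REST, 10 RCOR3 and 3 SIN3A peaks. From 100 to 110 Mb, REST (8 peaks) and RCOR3 (3) lay below their medians, where SIN3A had 27 peaks. From 10 to 20 Mb, REST (20) and RCOR3 (13) lay above theirs, and SIN3A (3) was equal to its own. The 3 RCOR1 peaks lay in 3 different bins, 2 of them within the stretch.

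**Figure D2:**
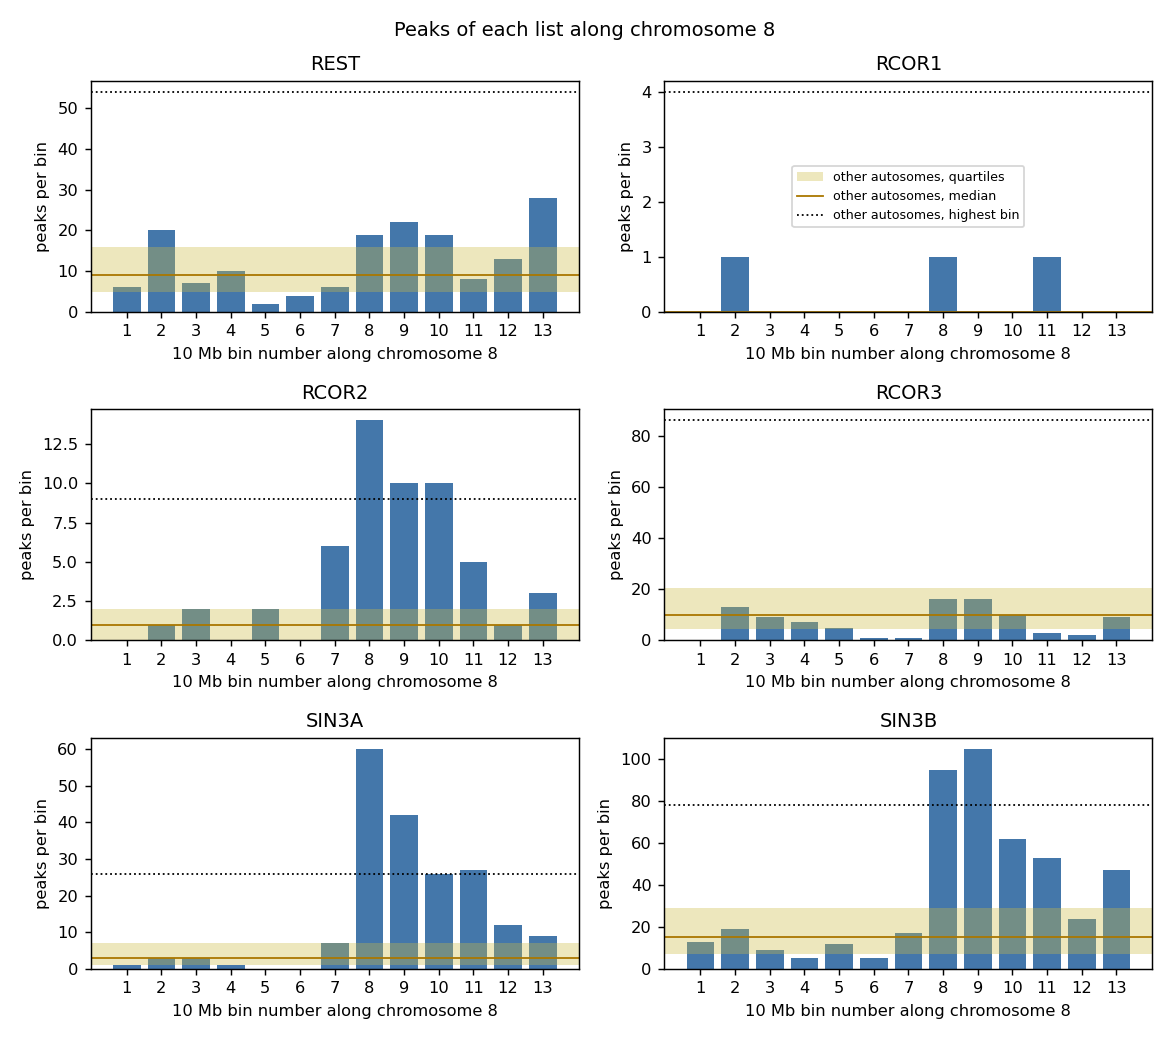
Peaks per 10 Mb bin (vertical axis) against the bin number along chromosome 8 (horizontal axis), with 1 panel per list. The yellow band and brown line are the quartiles and median of the 231 bins of the other autosomes, and the dotted line is their highest bin. Bins 8 to 11 are high for SIN3A, SIN3B and RCOR2, and no RCOR3 bin exceeds the upper quartile.

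Compared with the 231 bins of the other autosomes, several of these bins had no equal. The highest SIN3A bin elsewhere held 26 peaks, on chromosome 19, and 3 bins of chromosome 8 exceeded it, from 70 to 80, 80 to 90 and 100 to 110 Mb. For SIN3B the highest bin elsewhere held 78 peaks and 2 bins of chromosome 8 exceeded it. For RCOR2 it held 9 and 3 bins exceeded it. By contrast, the highest bin elsewhere held 54 REST peaks and 86 RCOR3 peaks, and no chromosome 8 bin reached either. Bins above the upper quartile of the other autosomes numbered 6 of 13 for SIN3A and for RCOR2, where 24.6% of all autosomal bins passed for each of these lists. They numbered 5 of 13 for SIN3B and for REST (25.4% of all autosomal bins for each), 3 for RCOR1 (16% of all bins) and 0 for RCOR3 (23.8% of all bins). The share of bins past this mark was above that of all autosomes for every list but RCOR3. With 13 bins the shares are imprecise (46.2%, 19.2 to 74.9%, for SIN3A and for RCOR2), and the interval of each list includes its share over all autosomal bins.

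Outside the stretch, chromosome 8 was near the median of whole autosomes for SIN3A, SIN3B and RCOR2, but above the median once the densest bins of every autosome were left out as well. The remaining 89.9 Mb of chromosome 8 held 4.01 SIN3A peaks per 10 Mb, against a median of 4.31 over the other autosomes taken whole. The values were 1.67 against 1.63 for RCOR2, 16.8 against 19.9 for SIN3B and 10.7 against 11.8 for REST. RCOR3 remained low outside the stretch, at 5.23 against 15.1. Since that sets a chromosome without its densest part against whole ones, the 4 densest consecutive bins of each list were also left out of every autosome. This took a larger part from the shorter autosomes, so the ranks that follow also depend on chromosome length. Chromosome 8 then ranked number 5 of 19 for SIN3A (4.01 against a median of 2.41), number 6 for SIN3B (16.8 against 12.3), number 1 for RCOR2 (1.56 against 0.958, with 1.50 on chromosome 11, the next), number 4 for REST (10.7 against 8.49) and number 17 for RCOR3 (5.23 against 8.68). The 4 densest consecutive bins themselves held 38.8 SIN3A peaks per 10 Mb on chromosome 8, and at most 14.5 on any other autosome. For SIN3B they held 78.8 against at most 59, for RCOR2 10 against at most 5, and for REST 17 against a median of 16.8.

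The bins of the stretch were also set beside bins with a like number of REST peaks. Since the stretch was chosen after its counts were seen, these comparisons describe it and are no separate support. Its bin from 100 to 110 Mb had 8 REST peaks and was not part of this match. Elsewhere in the genome, 17 autosomal bins had 19 to 22 REST peaks, as had the 3 bins of chromosome 8 from 70 to 100 Mb. Those 17 bins held 1 to 17 SIN3A peaks with a median of 8, whereas the chromosome 8 bins held 60, 42 and 26. They held 0 to 7 RCOR2 peaks (median 2) against 14, 10 and 10, and 19 to 63 SIN3B peaks (median 37) against 95, 105 and 62. The SIN3B value of 62 therefore lay within the range of the comparison bins. RCOR3 had 16, 16 and 10 peaks in the chromosome 8 bins, within the 3 to 52 of the other bins and below their median of 23. SIN3A was raised more than SIN3B, with 0.492 SIN3A peaks per SIN3B peak in the stretch and 0.228 over all other autosomal bins. Among the 16 bins elsewhere with at least 53 SIN3B peaks, this ratio ran from 0.158 to 0.456, and in the 4 bins of the stretch from 0.400 to 0.632.

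**Figure D3:**
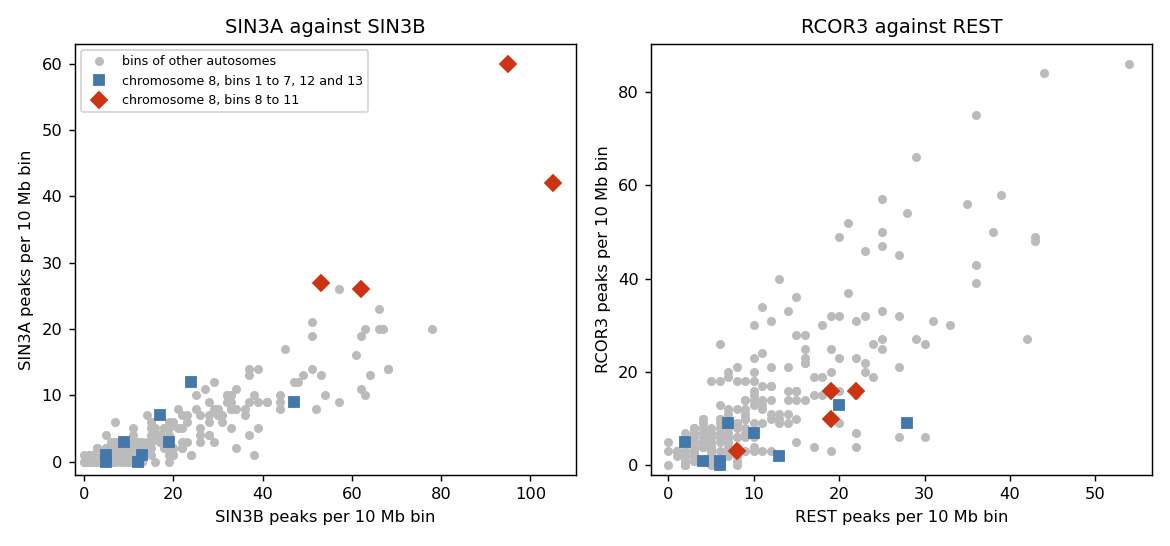
Counts per 10 Mb bin, SIN3A against SIN3B on the left and RCOR3 against REST on the right, in peaks per bin. Grey circles are bins of other autosomes, red diamonds the 4 bins of chromosome 8 from 70 to 110 Mb and blue squares its other bins. The red bins lie above all or most grey bins on the left (26 to 60 SIN3A peaks) and in the lower part of the cloud on the right (3 to 16 RCOR3 peaks).

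Neighbouring SIN3A peaks, and neighbouring SIN3B peaks, lay closer together on chromosome 8. The median gap between successive SIN3A peaks was 56.0 kb there and 475 kb on the other autosomes, and for SIN3B 47.5 kb and 124 kb. For REST the gaps were 322 kb and 304 kb, and for RCOR3 they were wider on chromosome 8, at 430 kb and 158 kb. Peaks with another peak of the same list within 10 kb made up 29.3% of the SIN3A peaks on chromosome 8 (23.0 to 36.3%) against 9.81% elsewhere, and 37.8% of the SIN3B peaks (33.3 to 42.3%) against 19.1%. The other lists showed no such rise, with 11.6% against 14.6% for REST, 3.70% against 4.19% for RCOR2 and 11.96% against 16.2% for RCOR3. A denser list has closer neighbours, so these shares are not independent of the counts above. The largest group of SIN3B peaks held 9 peaks over 32.9 kb at chr8:87868711-87901591, and the largest elsewhere held 6. The largest SIN3A group held 5 peaks over 16.0 kb at chr8:73523431-73539471, and the largest elsewhere held 3. Counting each such group once left 354 SIN3B and 159 SIN3A groups on chromosome 8.

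The score that the authors gave each peak was used as a rank within its list. The extra SIN3A peaks were not confined to weak peaks. The chromosome 8 share of SIN3A was 13.7% in the lowest quintile of its scores (10.6 to 17.3%) and 15.2% in the highest (10.9 to 20.3%). SIN3B held 9.30% in its lowest quintile (7.65 to 11.2%) and 7.62% in its highest (6.06 to 9.44%). Median percentiles on chromosome 8 and elsewhere were equal at 43.6 for SIN3A and at 49.5 for SIN3B. RCOR2 differed, with 25% of its lowest quintile on chromosome 8 (8 of 32, 11.5 to 43.4%) and 8.89% of its highest (8 of 90, 3.92 to 16.8%). These RCOR2 intervals overlap, and the highest RCOR2 score on chromosome 8 was 18.09 while the list reached 52.01.

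REST peaks on chromosome 8 ranked somewhat low. Their median percentile was 44.1 (quartiles 25.8 and 65.0) against 50.6 (25.2 and 75.6) elsewhere, and the median scores were 18.07 and 21.34. Chromosome 8 held 7.03% of the middle quintile of REST scores (5.13 to 9.35%) and 3.54% of the highest (2.23 to 5.31%). RCOR3 held between 1.91 and 2.81% in every quintile, so its low count was spread over all its scores.

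**Figure D4:**
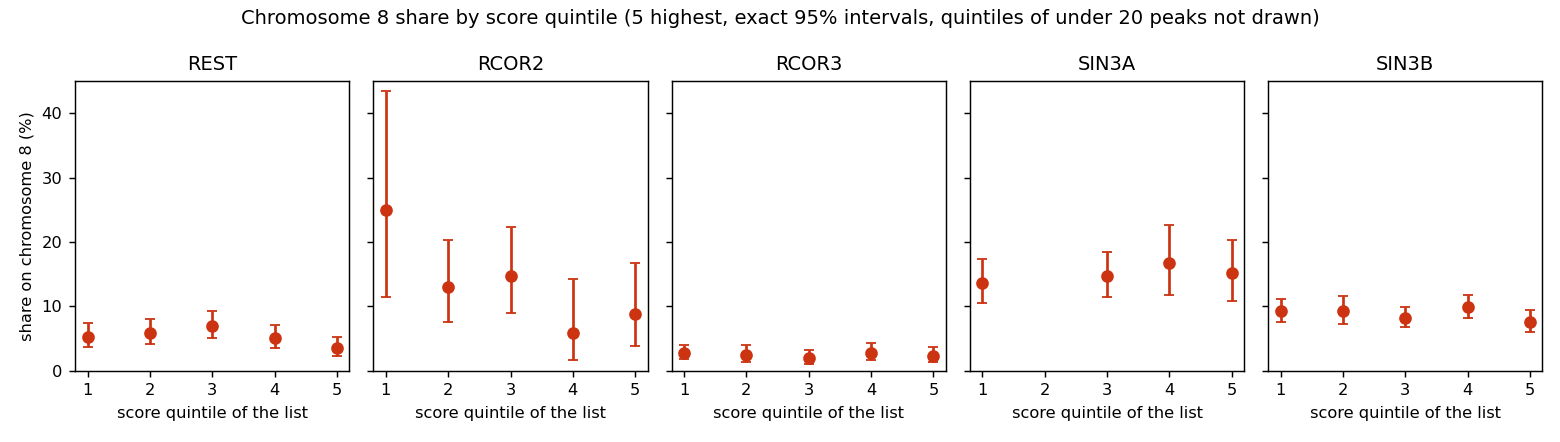
Share of a list's autosomal peaks on chromosome 8 (percent) by quintile of that list's scores (1 lowest, 5 highest), with exact 95% intervals. Quintiles of under 20 peaks, such as quintile 2 of SIN3A with 4, are not drawn, nor is RCOR1. SIN3A and SIN3B stay level, RCOR3 stays low, RCOR2 runs from 25% in the lowest quintile to 8.89% in the highest, and REST is lowest in its highest quintile (3.54%).

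At matched REST score, REST peaks on chromosome 8 had RCOR3 less often than the other autosomes pooled, by 10.8 points. They had SIN3A and SIN3B more often, by 5.15 and 9.39 points. Before matching, chromosome 8 was not the extreme for any of the 3, with chromosome 9 lower for RCOR3 (14.8%) and chromosome 19 highest for SIN3A (15.6%) and SIN3B (49.4%). By these unmatched shares it ranked number 18 of 19 for RCOR3 and number 3 for SIN3A and for SIN3B. Single autosomes were not matched for REST score. RCOR3 was present at 17.1% of the chromosome 8 REST peaks (28 of 164, 11.7 to 23.7%), against 33.7% on the other autosomes and 32.8% over all autosomes. Weighting the other autosomes to the REST scores of chromosome 8, by quintile of score, gave 27.9%, or 45.7 peaks in place of 28. SIN3B was present at 42.1% (69 of 164, 34.4 to 50.02%), against 38.6% elsewhere, 38.8% over all autosomes and 32.7% after weighting. SIN3A was present at 11.6% (19 of 164, 7.12 to 17.5%), against 8.27% elsewhere, 8.45% over all autosomes and 6.43% after weighting. RCOR2 was at 4 REST peaks (2.44%, 0.668 to 6.13%, against 2.36% over all autosomes), and RCOR1 at 2 (1.22%, 0.148 to 4.34%, against 2.03%). At least 1 cofactor was present at 45.1% of the chromosome 8 REST peaks (37.4 to 53.1%) and at 45.7% over all autosomes.

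Within each quintile of REST scores, RCOR3 was less frequent on chromosome 8 in 5 of 5 cases and SIN3B more frequent in 5 of 5, while SIN3A was more frequent in 4 of 5. In the highest quintile RCOR3 was at 63.6% of REST peaks on chromosome 8 (14 of 22, 40.7 to 82.8%) and at 88.3% elsewhere (85.5 to 90.8%). SIN3B was at 95.5% of the same 22 peaks (77.2 to 99.9%) and at 92.5% elsewhere. Strong REST sites of chromosome 8 thus nearly all had a SIN3B peak, while 8 of the 22 had no RCOR3 peak. All 8 lay beyond the stretch of high SIN3A and SIN3B counts, the first in the region chr8:114827871-114828231. Every REST peak of the highest quintile before that region had RCOR3, as had some beyond it, such as the one at chr8:120059651-120059891. The lower RCOR3 share in this quintile was therefore not spread over the whole chromosome. This division was made after the data were seen and was not tested. In quintile 2, SIN3B was at 24.3% of REST peaks on chromosome 8 (9 of 37, 11.8 to 41.2%) and at 10.6% elsewhere (8.19 to 13.3%). The intervals did not overlap in 1 of 5 quintiles for RCOR3 and in 0 of 5 for SIN3A and SIN3B.

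**Figure D5:**
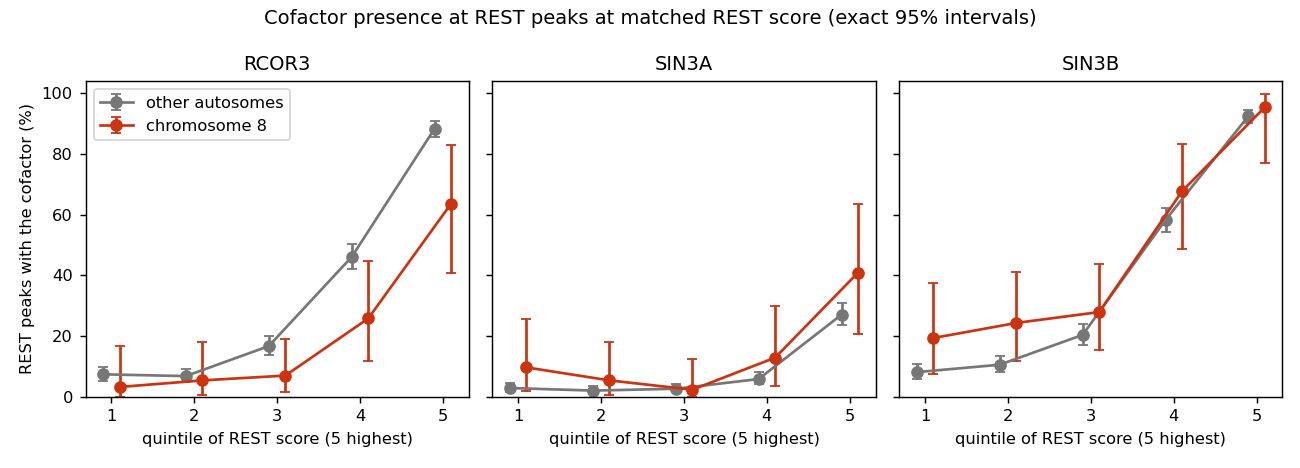
REST peaks with RCOR3, SIN3A or SIN3B (vertical axis, percent) by quintile of REST score (horizontal axis, 5 highest), on chromosome 8 in red and on the other autosomes in grey, with exact 95% intervals. RCOR3 on chromosome 8 lies below the other autosomes in each quintile, with 63.6% against 88.3% in the highest, and SIN3B lies above in each.

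The higher presence of the SIN3 proteins at REST lay in the same stretch as their peak counts. The stretch was chosen after those counts were seen, and they include the peaks at REST. Part of the contrast between the stretch and its surroundings therefore follows from that choice. In the stretch from 70 to 110 Mb, SIN3B was at 55.9% of REST peaks (38 of 68, 43.3 to 67.9%), against 34.2% elsewhere after weighting to their scores. SIN3A was at 17.6% there (12 of 68, 9.46 to 28.8%), against 6.21%. Before the stretch, SIN3B was at 23.6% (13 of 55, 13.2 to 37.0%) against 25.9%, and SIN3A at 5.45% (3 of 55, 1.14 to 15.1%) against 4.10%. After it, SIN3B was at 43.9% (18 of 41, 28.5 to 60.3%) against 39.2%, and SIN3A at 9.76% (4 of 41, 2.72 to 23.1%) against 9.93%. Outside the stretch both thus lay near the values weighted from other autosomes. RCOR3 was below the weighted value in all 3 positions, but its interval excluded that value only after the stretch. It was at 14.5% (8 of 55, 6.50 to 26.7%) against 21.2% before the stretch. Within it RCOR3 was at 23.5% (16 of 68, 14.1 to 35.4%) against 28.8%, and after it at 9.76% (4 of 41, 2.72 to 23.1%) against 35.4%.

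Away from REST, SIN3A and SIN3B met as often on chromosome 8 as elsewhere when counted from SIN3A. Of 174 such SIN3A peaks, 49.4% coincided with SIN3B (86 peaks, 41.8 to 57.1%), against 45.3% elsewhere and 46% over all autosomes. Counted from SIN3B, 22.8% of 400 peaks coincided with SIN3A (91 peaks, 18.7 to 27.2%), against 11.03% elsewhere and 12.2% over all autosomes. The chromosome 8 count of SIN3A was raised more than that of SIN3B, as given above. Of the same 174 SIN3A peaks, 4.60% coincided with RCOR3 (8 peaks, 2.01 to 8.86%), against 6.73% elsewhere and 6.37% over all autosomes.

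RCOR2 and RCOR3, a pair of CoREST proteins, coincided less on chromosome 8 when counted from RCOR2. Of the 50 RCOR2 peaks away from REST, 22% coincided with RCOR3 (11 peaks, 11.5 to 36.0%), against 55.4% elsewhere (49.8 to 60.9%) and 50.9% over all autosomes. Counted from RCOR3, 16.4% of 67 peaks coincided with RCOR2 (8.49 to 27.5%), against 6.66% elsewhere and 6.89% over all autosomes. SIN3A was present at 10.4% of these 67 RCOR3 peaks (4.30 to 20.3%), against 2.22% elsewhere and 2.42% over all autosomes. Of SIN3B peaks away from REST, 2.75% coincided with RCOR3 (11 of 400, 1.38 to 4.87%), against 7.06% elsewhere and 6.64% over all autosomes. As given above, the chromosome 8 counts of RCOR2 and SIN3B away from REST were raised and that of RCOR3 was low. These shares move with such counts, and a change in pairing apart from them was not tested.

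When peaks of all lists with neighbouring midpoints less than 400 bp apart were joined, chromosome 8 held 723 regions and the other autosomes 9492. SIN3B alone made up 40.9% of the chromosome 8 regions (37.3 to 44.6%) against 31.8%. SIN3A alone made up 11.1% (8.87 to 13.6%) against 4.72%, SIN3A with SIN3B 10.9% (8.75 to 13.4%) against 3.79%, and RCOR2 alone 4.84% (3.39 to 6.67%) against 1.39%. The 2 commonest combinations with RCOR3 on the other autosomes made up less. RCOR3 alone made up 6.09% (4.46 to 8.08%) against 23.6%, and REST with RCOR3 and SIN3B 1.52% (0.762 to 2.71%) against 5.57%. Not all combinations with RCOR3 were scarcer, since RCOR3 with SIN3A and SIN3B made up 0.415% (3 regions, 0.0857 to 1.21%) against 0.358%, and RCOR2, RCOR3 and SIN3A met in 2 regions (0.277%, 0.0335 to 0.996%) against 0.0105%. REST with SIN3B and no other list made up 5.39% (3.86 to 7.30%) against 3.24%. REST without any cofactor made up 12.4% (10.1 to 15.1%) against 16.4%. These are shares of all regions of a chromosome, so a high count of one combination lowers the others. Counted over REST peaks, as above, 45.1% on chromosome 8 and 45.8% on the other autosomes had a cofactor.

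The strongest site of the chromosome lay far from the stretch. The peak at chr8:14072691-14072731 had the highest chromosome 8 score for REST (838.04, percentile 99.97 of the list), RCOR1 (31.49), SIN3A (78.68) and SIN3B (134.29). The highest RCOR3 peak of the chromosome (114.16) began 20 bp further on, and RCOR2 was present with a low score of 8.54. It was the 1 region of the chromosome found in all 6 lists. The region at chr8:91714231-91714331 was found in all lists but RCOR1, with a REST score of 139.28 and an RCOR3 score of 40.14. All lists but SIN3A met at chr8:74412951-74413131, with a REST score of 69.64 and the lowest RCOR1 score of the chromosome, 7.5. REST, RCOR3, SIN3A and SIN3B met at chr8:87361311-87361831 (REST score 113.2) and at chr8:74600011-74600831 (94.23).

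Several of the highest cofactor peaks of the chromosome had no REST peak. Next to the top site, the highest SIN3A peak was at chr8:74539991-74540251, with a score of 49.54 at percentile 99.4 of the list, and it was found in no other list. The SIN3B peaks next below the top site, at chr8:87950151-87950191 (117.71) and chr8:113156051-113156091 (106.94), coincided with SIN3A and not with REST. The highest RCOR2 peak, at chr8:24368731-24368771 (18.09), and the one ranked 3, at chr8:109694931-109695151 (15.83), were in no other list. The RCOR1 peak ranked 2, at chr8:109339971-109340011 (11.25), also stood alone. At most 3 cofactors met without REST, in 5 regions. The first 3 of them by the sum of within-list percentiles were chr8:73539091-73539531 and chr8:86793091-86793331 with RCOR3, SIN3A and SIN3B, and chr8:73560411-73560591 with RCOR2, RCOR3 and SIN3A. These 3 lay in the stretch from 70 to 110 Mb, as did 1 of the other 2, while the region at chr8:110313911-110314291 with RCOR3, SIN3A and SIN3B lay beyond it.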

How the data were processed

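Peak lists of 6 proteins, 1 ChIP-seq library each, were used as deposited. A list holds chromosome, start, end and a score per peak. The authors' score has no stated meaning, so it served for ranks within 1 list, with tied peaks sharing the mean rank. Per the file names the build is mm8. For the aligner, peak caller, control, threshold and read depth, the answer is "not given in the sources used here", and numbers of peaks were therefore compared between chromosomes of a list. Positions are printed as deposited, and no gene annotation or sequence of that build was used.

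Peaks were read in Python 3.11.15 with pandas 2.3.3, and intervals came from scipy 1.17.1. Shares are over the 19 autosomes. A chromosome's span runs to its last peak in any list, and end bins covering under 5 Mb were left out. Groups of peaks were joined where neighbouring midpoints lay within 10 kb. Named sites were the 3 top peaks per list, the 5 regions found in the most lists, the 3 regions with the most cofactors away from REST, and the densest bin and largest group per list. The members, the comparisons and these rules were chosen with earlier results of these data known. The procedures were tested on simulated data.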

Additional observations from a re-analysis of the deposited data

Results flagged for a closer look

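Away from REST, 4 of the 5 cofactor lists had a chromosome 8 share whose interval lay to one side of the REST share. The lists moved in opposite directions, which is what brought them here. The ratio to the REST share was 3.08 for SIN3A, 2.50 for RCOR2 and 1.81 for SIN3B, and 0.450 for RCOR3. Each rests on 1 library, and the difference between the lists was not tested.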

How the results depend on the processing

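Of 96 values under other settings, 72 stayed within the 95% interval of the value reported, for 22 results. Values with midpoints less than 200 or 1400 bp apart, bins of 5 Mb and chromosome 9 left out all did so. Leaving out the densest 10 Mb bin of chromosome 8 gave shares of 4.49% for REST, 10.6% for SIN3A, 6.99% for SIN3B, and away from REST 11.9% for SIN3A and 7.57% for SIN3B. Counting peaks within 10 kb once gave 7.60% for SIN3B and 8.23% away from REST. The better-scoring 50% of a list gave 4.54% for REST, and 0% for RCOR1 away from REST, which then had 1 autosomal peak. Among the better-scoring 50% of REST peaks, RCOR3 was at 32.9% on chromosome 8 (58.5% elsewhere), SIN3A at 20% (13.8%) and SIN3B at 68.6% (65.9%). With intervals as deposited, SIN3B was at 34.1% (32.1%). Leaving out the stretch from 70 to 110 Mb, an alternative chosen after seeing the data, gave REST a share of 3.21%, RCOR2 3.78%, RCOR3 1.28%, SIN3A 3.17% and SIN3B 3.05%. Away from REST it gave RCOR1 0%, with 3 autosomal peaks left, RCOR2 4.15%, RCOR3 1.28%, SIN3A 3.20% and SIN3B 3.12%. SIN3B was then at 32.3% of the chromosome 8 REST peaks. Fewer bins remain under these last settings by construction. No paired analysis was possible because each protein has 1 library. Read depth is unknown, which limits any comparison of one list with another.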

Other observations

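Within the stretch from 70 to 110 Mb, the SIN3 peaks gathered in a few blocks of 1 Mb, which were picked after their counts were seen. From 73 to 74 Mb there were 24 SIN3A, 40 SIN3B, 8 RCOR2 and 9 RCOR3 peaks beside 6 REST peaks. From 74 to 75 Mb there were 21 SIN3A and 21 SIN3B peaks beside 5 of REST. The block from 87 to 88 Mb held 59 SIN3B, 14 SIN3A and 10 REST peaks, and the one from 86 to 87 Mb held 20 SIN3B and 15 SIN3A peaks beside 2 of REST. From 108 to 109 Mb there were 34 SIN3B and 20 SIN3A peaks beside 3 of REST. RCOR2 and RCOR3 peaks numbered 2 each in that last block.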
